A study of Mus musculus with 16 samples.

Results

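GABA is the main inhibitory transmitter of the brain, and the 8 genes described here make it, load it, take it up, break it down and bind it at its metabotropic receptor. They are Gad1, Gad2, Slc32a1, Slc6a11, Slc6a13, Abat, Gabbr1 and Gabbr2, taken by symbol as genes of these roles from 24062 genes in the counts table. All 8 were also found in the FPKM table, and all 8 passed the filter on low counts.

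RNA-seq was carried out on whole brains, cerebellum included, of 16 female C57BL/6J mice at postnatal day 45, divided over 4 groups of 4. The WW group drank water throughout. The NW group found 200 µg/ml of nicotine in the home-cage bottles during 22 h of each day, over 6 days before the 4 days of drinking sessions and on those days too. The Water-Ethanol mice (marked by their initials in the plots) had no nicotine and were offered 20% v/v ethanol by drinking in the dark, a procedure that gives a single tube for some hours of the dark phase. The NE mice had both the nicotine and the ethanol, but not at the same hours, since the nicotine bottles were removed for the sessions. The last session lasted 4 h and came just before dissection, so the NW and NE mice had no nicotine on offer in those 4 h. Effects of nicotine and of its withdrawal cannot be told apart here. The mice share 1 sex, strain and age. No other fluid was offered beside the nicotine bottles or the ethanol tube, and each mouse set its own intake, which was not analysed here. In a whole brain, fewer cells of a type and less RNA per cell cannot be told apart.

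Glutamate decarboxylases turn glutamate into GABA, and the vesicular transporter fills synaptic vesicles with it. After release, GABA is cleared by plasma membrane transporters of neurons, glia and the brain's coverings, and is degraded in mitochondria by GABA transaminase. Slow inhibition runs through the GABA-B receptor, an obligate pair of subunits that couples to G proteins, and its agonist baclofen is a drug that has been studied in alcohol use.

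Counted reads per mouse ranged from 27.1 M to 32.9 M. Of 15 lists of markers for cell types and regions, 14 held genes that passed the filter on low counts. The pituitary list held none, and its summed level was 14.2 CPM in NW replicate 10 and at most 2.14 CPM in the other mice. CPM here are a gene's counts divided by the library's total in M, with that total scaled between libraries by TMM. WW replicate 21 and NW replicate 10 stood apart in the cerebellum: markers of cerebellar granule cells summed to 407 and 543 CPM there, against 934 to 1153 in the other 14 mice. WW replicate 20 stood apart in olfactory mucosa markers, with a score of 2.30 against at most 0.72 in the treated groups. Olfactory bulb marker scores were 0.15 to 0.34 in WW, -0.38 to 0.11 in NW, -0.65 to 0.25 in Water-Ethanol and -0.46 to 0.18 in NE. A score is the mean over a list of log2 CPM centred on all mice. The ribosomal precursor Rn45s took 3.90% of counts in NW replicate 10 and 0.274 to 1.37% in the other 15 libraries.

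No member passed the test in any of the 8 comparisons, by edgeR's quasi-likelihood test with p-values adjusted over all genes (Benjamini-Hochberg, threshold 0.05). Gad2 was below every WW mouse in all 12 treated mice, and the share of all genes with this pattern was not counted. Taken 1 group at a time, the groups were apart from WW in 5.96% of all genes for NW, 10.8% for Water-Ethanol and 10.7% for NE. The largest differences from WW in size were those of Slc6a13 in NE and of Slc6a11 in both ethanol groups. Per transcript length, the genes spanned a wide range of levels. Mean FPKM over the 16 mice was 177 ± 9.33 (SD) for Gad1, 165 ± 4.49 for Gabbr1, 107 ± 3.46 for Abat, 88.8 ± 5.80 for Slc6a11, 64.1 ± 2.52 for Gad2, 62.9 ± 3.13 for Gabbr2, 49.1 ± 2.41 for Slc32a1 and 5.93 ± 0.779 for Slc6a13. The per-mouse ranges of Gad1 and Gabbr1, of Abat and Slc6a11, and of Gad2 and Gabbr2 overlapped, so the order within each of these pairs was not separated, while every other neighbour in the order was. For comparison, the betaine and GABA transporter BGT1 (Slc6a12) had 1.05 ± 0.121 FPKM.

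**Figure D1:**
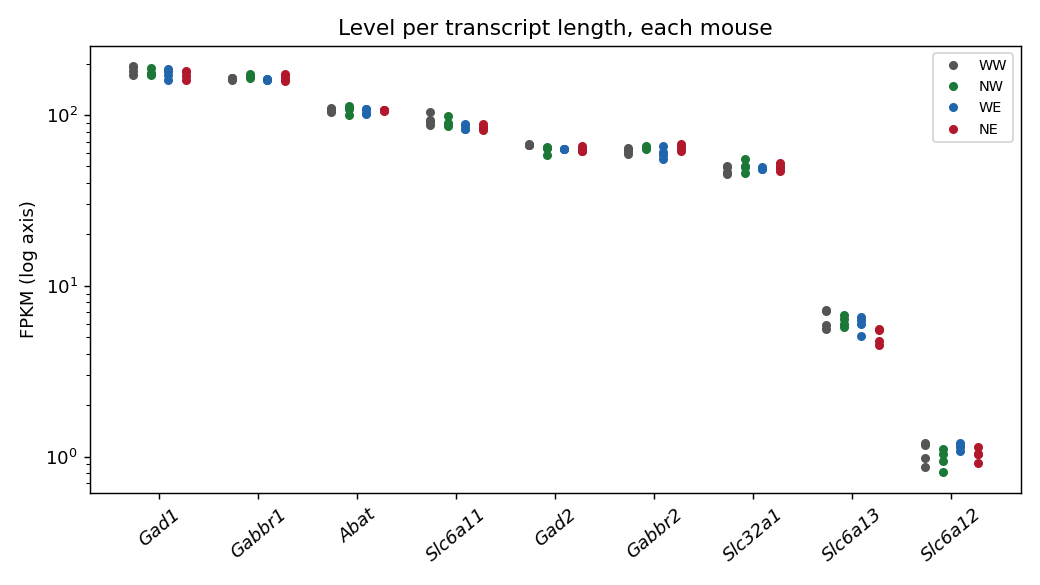
FPKM of the 8 members and of Slc6a12 in each mouse (log axis), with the groups side by side and marked by initials. Slc6a13, with 4.48 to 7.18 FPKM, lay far below the other members, and the spread between mice was small beside the range between genes.

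The bases just upstream of the annotated transcript starts are shown for 4 genes, the pair of enzymes that make GABA and the pair of membrane transporters among the members, so that genes of one role can be set side by side. RefSeq sequences on GRCm38.p6 matched 7 members (all but Abat) in 9 windows of 250 bases. Slc6a13 had more than 1 window and the other matched members 1 each, so the windows are not all separate genes. Only the first Slc6a13 window is drawn on below. Each stretch below is 120 bases, taken 5′ to 3′ from outside any exon that GENCODE assigns to the gene, on the plus strand: chr2:70561922-70562041 for Gad1, chr2:22622085-22622204 for Gad2, chr6:114131121-114131240 for Slc6a11 and chr6:121300107-121300226 for Slc6a13. Capitals mark the TATA box (TATAAA), the CCAAT box (CCAAT) and the GC box (GGGCGG), searched on both strands.
Gad1: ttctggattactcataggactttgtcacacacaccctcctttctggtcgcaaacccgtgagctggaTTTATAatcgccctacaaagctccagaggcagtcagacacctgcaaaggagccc
Gad2: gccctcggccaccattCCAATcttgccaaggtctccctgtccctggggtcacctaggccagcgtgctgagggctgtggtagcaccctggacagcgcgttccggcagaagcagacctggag
Slc6a11: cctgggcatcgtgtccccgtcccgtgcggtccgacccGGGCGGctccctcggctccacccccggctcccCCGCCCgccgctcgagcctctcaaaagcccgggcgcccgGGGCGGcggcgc
Slc6a13: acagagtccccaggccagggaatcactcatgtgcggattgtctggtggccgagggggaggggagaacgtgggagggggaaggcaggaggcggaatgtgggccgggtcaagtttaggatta
G and C made up 50.8% of the Gad1 stretch, 65% of Gad2, 81.7% of Slc6a11 and 61.7% of Slc6a13. Of the 9 windows of 250 bases, 5 held a GC box, which 32.7% of all 32851 windows in the table did. A CCAAT box was in 2 of the 9 windows (33.8% of all), that of Gad2 and a Slc6a13 window not shown, and a TATA box in 1 (12.4% of all). The full cAMP response element (TGACGTCA, 1.55% of all windows), the homeodomain core (TAATTA, 4.84%) and the E-box (CACGTG, 6.02%) were in 0 of the 9. These are matches of letters and not binding sites.

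Gad2 (chr2:22622327-22693877, 16 exons) encodes GAD65, the decarboxylase that sits largely at nerve terminals. Its values in WW were 365, 365, 363 and 361 CPM after TMM scaling, a spread of 2.13 CPM (SD). That is a coefficient of variation of 0.587%, and Water-Ethanol had 0.645%. Counting error alone gives 0.934 to 1.03% for Gad2, so these mice lay closer together than counting would put them. A separation from WW leans on this narrow spread. In NW they were 308, 347, 350 and 351 CPM, in Water-Ethanol 338, 340, 338 and 342 CPM, and in NE 328, 357, 332 and 348 CPM. Each of the 12 treated mice was below the lowest WW mouse, and the 3 treated groups overlapped one another. Such counts over the 12 treated mice, here and for the other members, have no share over all genes beside them, since it was not counted. Mean Gad2 was 6.70% lower in NW, 6.59% lower in Water-Ethanol and 6.03% lower in NE than in WW, and each of these differences gave p = 0.0286 in an exact two-sided permutation test, the smallest that 4 against 4 mice allow. The 3 comparisons share the WW mice, and 40 such tests were run on the members without adjustment.

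Across all genes, Gad2 did not pass in any of them. Its log2 fold change was -0.10 for NW (SE 0.0477, adjusted p = 0.613), -0.10 for Water-Ethanol (SE 0.0299, adjusted p = 0.120) and -0.09 for NE (SE 0.0353, adjusted p = 0.231) by edgeR's quasi-likelihood test. With DESeq2, the Water-Ethanol difference had an adjusted p of 0.0173, and 605 genes were called in that comparison against 70 by edgeR. Without NW replicate 7, which had the lowest Gad2 value of all mice, the NW difference was -0.06. The pan-neuronal score, from 6 of 6 listed markers, ran from 0.00 to 0.06 in WW, from -0.09 to 0.03 in NW, from -0.07 to 0.01 in Water-Ethanol and from -0.05 to 0.03 in NE. The summed level of these markers was 6145 to 6443 CPM in WW, 5454 to 6193 CPM in NW, 5839 to 6230 CPM in Water-Ethanol and 5850 to 6168 CPM in NE, and none was at 0 in all mice. The part of this score and of the olfactory bulb score in the Gad2 difference was not tested.

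Gad1 (chr2:70562164-70602012, 17 exons) encodes GAD67, the decarboxylase that supplies most GABA of the cell body. Its values were 584, 581, 547 and 521 CPM in WW, 509, 572, 543 and 526 CPM in NW, 557, 544, 485 and 517 CPM in Water-Ethanol, and 511, 542, 488 and 547 CPM in NE. The groups overlapped, although 5 of the 12 treated mice were below all WW mice and none was above them. The log2 fold change from WW was -0.05 (SE 0.0517) in NW, -0.08 (SE 0.0510) in Water-Ethanol and -0.10 (SE 0.0488) in NE, and edgeR's quasi-likelihood test gave adjusted p-values of 0.800, 0.393 and 0.344. The ratio of Gad1 to Gad2 in FPKM was 2.74 ± 0.134 (SD, n = 4) in WW, 2.83 ± 0.138 for NW, 2.76 ± 0.173 for Water-Ethanol and 2.73 ± 0.0825 for NE. The groups overlapped in this ratio.

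Slc32a1 (chr2:158610758-158615747, 2 exons) encodes the vesicular inhibitory amino acid transporter VGAT, which loads GABA and glycine. It had 116 to 130 CPM in WW, 121 to 140 in NW, 123 to 128 in Water-Ethanol and 122 to 136 in NE. Its log2 fold change from WW was 0.07 (SE 0.0536), 0.02 (SE 0.0401) and 0.05 (SE 0.0461) in the same order, and edgeR's quasi-likelihood test gave adjusted p-values between 0.611 and 0.840. Unlike both decarboxylases, no treated mouse lay below all WW mice. GENCODE lists an antisense gene, Gm14205, over this locus, and since use of strand in the counting is not given in the sources used here, its reads cannot be told apart from those of Slc32a1. The 12 interneuron markers, all tested, summed to 507 to 548 CPM in WW, 510 to 566 CPM in NW, 479 to 533 CPM in Water-Ethanol and 508 to 562 CPM in NE.

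**Figure D2:**
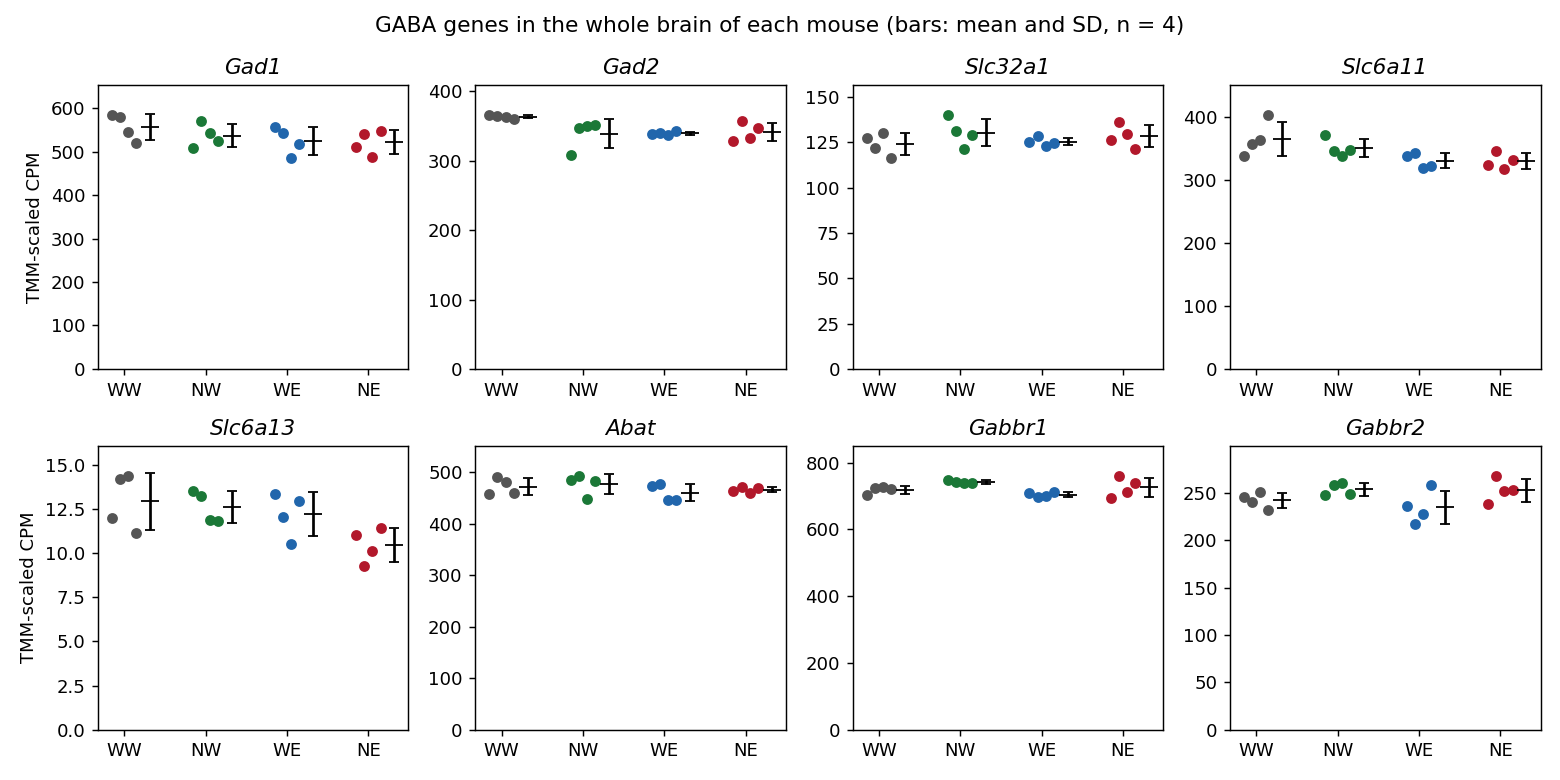
TMM-scaled CPM of each member in each mouse, with 1 panel per gene, vertical axes from 0, groups marked by initials, and the mean and SD of 4 mice beside the points. All 12 treated mice are below the WW mice for Gad2, a pattern whose share over all genes was not counted. The NE mice hold the lowest Slc6a13 mean, 10.5 CPM.

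Slc6a13 (chr6:121300296-121337718, 15 exons) encodes GAT2, a GABA and taurine transporter known from the leptomeninges and blood vessels of the brain more than from its neurons. Its values were 11.97, 14.23, 14.37 and 11.16 CPM in WW and 13.54, 13.24, 11.87 and 11.85 CPM in NW. They were 13.36, 12.07, 10.51 and 12.95 CPM in Water-Ethanol and 11.02, 9.26, 10.15 and 11.45 CPM in NE. All 4 NE mice lay below all 4 NW mice, and 3 of them below all WW mice, while the NE and Water-Ethanol mice overlapped.

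In NE the mean of Slc6a13 was 19.03% lower than in WW (exact permutation p = 0.0571), 17.1% lower than in NW (exact permutation p = 0.0286) and 14.3% lower than in Water-Ethanol (exact permutation p = 0.0857). On the log2 scale these were -0.30 (SE 0.0980), -0.27 (SE 0.0855) and -0.22 (SE 0.0877). The difference from WW was larger in size than those of 94.0% of the 15313 genes tested, but edgeR's quasi-likelihood test gave adjusted p-values of 0.159, 0.268 and 0.834. With either substance alone the differences from WW were -0.03 (SE 0.0935) in NW and -0.08 (SE 0.0979) in Water-Ethanol. The test of whether nicotine altered the ethanol difference gave an interaction of -0.19 (SE 0.134, adjusted p = 0.848, edgeR), so a difference between these effects was not shown.

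Slc6a13 was also the member with the fewest reads, 249 to 438 per mouse, for which counting error alone gives a coefficient of variation of 4.78 to 6.34%. The observed variation within groups was 7.06 to 12.5%. Leptomeningeal fibroblast markers, 12 of 12 tested and none at 0 in all mice, summed to 278 to 377 CPM in WW, 277 to 314 CPM in NW, 239 to 323 CPM in Water-Ethanol and 266 to 291 CPM in NE. The score of this list was -0.12 to -0.01 in NE and -0.03 to 0.25 in WW. With this score and the cerebellar score as covariates in a fit of all 16 mice, the Slc6a13 difference between NE and WW was -0.27 (adjusted p = 0.416, edgeR), and without WW replicate 21 it was -0.37 (adjusted p = 0.0609, edgeR). The latter was the extreme of the fits that left out single mice, which ranged from -0.37 to -0.25, with adjusted p from 0.0609 to 0.345 (edgeR).

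Slc6a11 (chr6:114131241-114249886, 14 exons) encodes GAT3, the GABA transporter of astrocytes. Its values were 339, 357, 363 and 403 CPM in WW, 372, 347, 339 and 348 CPM in NW, 338, 343, 320 and 323 CPM in Water-Ethanol, and 325, 347, 318 and 332 CPM in NE. In both ethanol groups 3 of the 4 mice were below all WW mice, and 7 of the 12 treated mice were. The highest value came from WW replicate 21, the mouse with the lowest cerebellar markers and the highest microglia score, 0.34 against at most 0.12 in the other mice. Mean Slc6a11 was 9.46% lower in Water-Ethanol and 9.63% lower in NE than in WW (exact permutation p = 0.0571 for each), and 6.02% lower in NE than in NW (exact permutation p = 0.0571).

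The log2 fold change of Slc6a11 from WW was -0.14 (SE 0.0504, adjusted p = 0.162, edgeR) in Water-Ethanol and -0.14 (SE 0.0503, adjusted p = 0.180, edgeR) in NE, against -0.06 (SE 0.0569, adjusted p = 0.811, edgeR) in NW. Over all 16 mice the ethanol effect, the mean of the ethanol differences with and without nicotine, was -0.12 (SE 0.0345), with an adjusted p of 0.0594 in edgeR's quasi-likelihood test. This was the smallest adjusted p-value of any member. The choice of test and of mice decided on which side of the threshold it fell: it was 0.0231 with DESeq2, 0.0346 without WW replicate 18, 0.0463 without NW replicate 10 and 0.0459 without NE replicate 3, within a range of 0.0231 to 0.399 over 26 alternatives, the highest with the cerebellar and leptomeningeal scores as covariates. Without WW replicate 21 the difference was -0.09 in Water-Ethanol and -0.10 in NE, and with WW replicates 20 and 21 both left out it was -0.07 and -0.08. The 8 astrocyte markers, all tested, summed to 5586 to 6004 CPM in WW, 5477 to 5870 CPM in NW, 5344 to 5551 CPM in Water-Ethanol and 5322 to 5692 CPM in NE. Most of that sum was Slc1a2, with means of 3982 CPM in WW and 3612 CPM in Water-Ethanol. The astrocyte score, in which each marker counts alike, overlapped between groups. It was -0.03 to 0.10 in WW, -0.11 to 0.08 in NW, -0.08 to 0.02 in Water-Ethanol and -0.06 to 0.00 in NE. The score of 6 microglia markers, all tested and none at 0 in all mice, was -0.06 to 0.34 in WW, -0.06 to 0.12 in NW, -0.12 to 0.00 in Water-Ethanol and -0.23 to 0.08 in NE. The microglia markers summed to 278 to 353 CPM in WW, 271 to 308 CPM in NW, 270 to 288 CPM in Water-Ethanol and 247 to 301 CPM in NE. The part of astrocytes and microglia in the Slc6a11 difference was not tested. The ratio of Slc6a11 to Slc6a13 in FPKM was 14.8 ± 2.68 (SD, n = 4) in WW, 14.7 ± 0.486 for NW, 14.4 ± 1.49 for Water-Ethanol and 16.9 ± 2.13 for NE, where all 4 mice were above all NW mice.

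Abat (chr16:8513429-8621567, 16 exons) encodes GABA transaminase, which degrades GABA in mitochondria and is the target of vigabatrin. It had 457 to 490 CPM in WW, 448 to 492 in NW, 446 to 476 in Water-Ethanol and 460 to 471 in NE. The groups overlapped throughout. Its log2 fold change from WW was 0.02 (SE 0.0450) in NW, -0.03 (SE 0.0388) in Water-Ethanol and -0.02 (SE 0.0350) in NE, and its adjusted p-values lay, by edgeR's quasi-likelihood test, between 0.680 and 0.946.

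Gabbr1 (chr17:37045966-37074305, 23 exons) encodes the subunit that binds GABA. It had 702, 723, 728 and 720 CPM in WW, 748, 742, 737 and 739 CPM in NW, 708, 696, 701 and 711 CPM in Water-Ethanol, and 693, 759, 712 and 737 CPM in NE. All 4 NW mice were above all WW mice, a difference in means of 3.28% (exact permutation p = 0.0286), and the NE mice spread across both. The log2 fold change in NW was 0.05 (SE 0.0373, adjusted p = 0.759, edgeR). It was -0.03 (SE 0.0307) in Water-Ethanol and 0.02 (SE 0.0363) in NE.

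Gabbr2 (chr4:46663898-46991714, minus strand, 19 exons) encodes the subunit that carries the receptor to the surface and couples it to G proteins. It had 245, 240, 251 and 232 CPM in WW, 247, 258, 261 and 249 CPM in NW, 236, 217, 228 and 258 CPM in Water-Ethanol, and 238, 268, 252 and 253 CPM in NE. The nicotine groups held higher means than the groups without nicotine, and the groups overlapped. The nicotine effect over all 16 mice was 0.09 (SE 0.0344, adjusted p = 0.390, edgeR). The ratio of Gabbr1 to Gabbr2 in FPKM was 2.66 ± 0.0987 in WW (SD, n = 4), 2.62 ± 0.0769 for NW, 2.69 ± 0.174 for Water-Ethanol and 2.57 ± 0.0377 for NE.

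**Figure D3:**
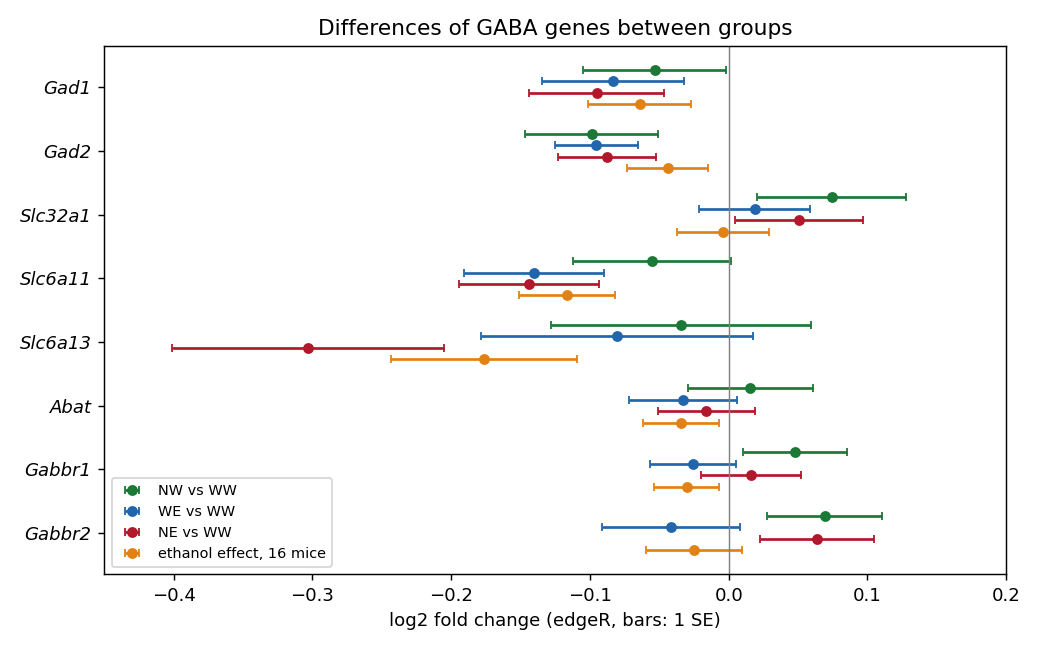
Log2 fold change of each member from edgeR, with bars of 1 SE, for NW, Water-Ethanol and NE against WW (marked by initials) and for the ethanol effect over all 16 mice. The Slc6a13 value in NE, -0.30, is the farthest from 0, and the ethanol effects lie between -0.18 and 0, with that of Slc32a1 changing sign under other settings.

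The counts of members with a difference are set against those of all genes. In the NW comparison edgeR's quasi-likelihood test called 0 of 15344 genes (0%), 8.44% had an unadjusted p under 0.05 and in 5.96% the groups did not overlap. Among the 8 members these counts were 0, 0 and 2 (Gad2 lower and Gabbr1 higher), and DESeq2 called 121 genes and 0 members. In Water-Ethanol, 0.457% of genes were called, 19.3% had an unadjusted p under 0.05 and 10.8% had groups apart, against 0, 2 (Gad2 and Slc6a11) and 1 (Gad2) of the 8 members. DESeq2 called 1 member there. In NE the shares were 0.313%, 17.5% and 10.7%, against 0, 3 (Gad2, Slc6a11 and Slc6a13) and 1 (Gad2) of the members, and DESeq2 called 0 members among 508 genes.

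Adding nicotine to ethanol (NE against Water-Ethanol) gave 0% of genes called by edgeR, 5.8% at an unadjusted p under 0.05 and 3.52% with groups apart, and 0, 1 (Slc6a13) and 0 members. DESeq2 called 2 genes and 0 members. Adding ethanol to nicotine (NE against NW) gave 0%, 11.9% and 7.43% of genes, and 0, 1 (Slc6a13) and 1 (Slc6a13) members, with 92 genes and 0 members called by DESeq2. For the ethanol effect over all 16 mice, 4.5% of 15592 genes were called and 22.9% had an unadjusted p under 0.05, and the members had 0 and 2 (Slc6a11 and Slc6a13), with 1 called by DESeq2. The nicotine effect had 0% of genes called and 10.3% at an unadjusted p under 0.05, with 1 member (Gabbr2), and the interaction had 0% and 6.76%, with 0 members. DESeq2 called 98 genes and 1 gene in these, and 0 members in each. The median log2 fold change of the 8 members was -0.01 for NW, -0.06 for Water-Ethanol and -0.05 for NE, where the median of all genes was 0.01, 0.00 and 0.00. Since NE against NW has no mouse in common with Water-Ethanol against WW, the ethanol difference can be set out in separate mice: Slc6a11 had -0.09 (SE 0.0459) and -0.14 (SE 0.0504), Slc6a13 had -0.27 and -0.08, and Gad2 had 0.01 (SE 0.0496) and -0.10.

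Of 18 other genes of the pathway, all tested, 1 passed the threshold. Slc38a2, which encodes SNAT2, an amino acid transporter that carries glutamine among others, rose in Water-Ethanol, from 325, 290, 262 and 286 CPM in WW to 378, 388, 494 and 373 CPM. All 4 Water-Ethanol mice were above all WW mice (log2 fold change 0.49, SE 0.0868, adjusted p = 0.0424, edgeR). In NE it had 407, 369, 431 and 318 CPM, which overlapped WW (0.39, SE 0.0869, adjusted p = 0.0735, edgeR), and in NW 201, 210, 323 and 318 CPM. Over all 16 mice the ethanol effect on Slc38a2 was 0.51 (SE 0.0982, adjusted p = 0.00851, edgeR).

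The other genes did not pass in any comparison, and 2 of the 18 had an unadjusted p under 0.05 for NW (Kctd12 and Slc12a2), 3 for Water-Ethanol and 2 for NE, with Slc38a2 among them in both ethanol groups. Among all genes tested, 8.44%, 19.3% and 17.5% had an unadjusted p under 0.05 in these comparisons (edgeR), so the pathway counts do not stand out. Among the KCTD proteins, auxiliary subunits of the GABA-B receptor, Kctd12 had 218 ± 13.9 CPM (SD, n = 4) in WW, 183 ± 18.99 for NW, 209 ± 3.95 for Water-Ethanol and 210 ± 7.12 for NE, with a log2 fold change of -0.25 (SE 0.0716, adjusted p = 0.324, edgeR) in NW. Kctd16 had 16.9 ± 1.48, 17.4 ± 2.26, 14.1 ± 1.10 and 17.0 ± 1.69 CPM in the same order, or -0.25 (SE 0.0770, adjusted p = 0.115, edgeR) in Water-Ethanol. Kcnj6, a channel subunit opened by G proteins, was at -0.15 (SE 0.0581, adjusted p = 0.181, edgeR) in Water-Ethanol. The chloride importer Slc12a2 was at -0.18 (SE 0.0566, adjusted p = 0.388, edgeR) in NW. Glul, the glutamine synthetase of astrocytes, was at -0.10 (SE 0.0381, adjusted p = 0.209, edgeR) in NE, where all 4 mice were below all WW mice. Of the other pathway genes, Aldh5a1 and Gphn were also apart and lower in NE than in WW, and Kcnj9 was apart and higher. In that comparison the groups were apart in 10.7% of all genes.

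Variation between mice of the same group was examined after group means were removed, over all 16 mice. Of 28 pairs of members, none passed after Benjamini-Hochberg adjustment, and the lowest permutation p was that of Gad2 and Gabbr2 (Pearson's r = 0.42, p = 0.00924, adjusted p = 0.259, Spearman's rho = 0.59, p = 0.00888), with r = 0.36 when the 2 most distant mice were left out. Of 112 relations between members and marker scores, 2 passed by permutation test. Abat followed the astrocyte score (r = 0.91, p = 0.00077, rho = 0.81, p = 0.00383, adjusted p = 0.0448, permutation), with r = 0.85 once the 2 mice with the most extreme scores were left out. Gad2 followed the pan-neuronal score (r = 0.87, p = 0.0008, rho = 0.89, p = 0.00214, adjusted p = 0.0448, permutation), with r = 0.72 without those 2. Slc6a13 and the leptomeningeal score had r = 0.43 (permutation p = 0.184, adjusted p = 0.502), and r = 0.11 without 2 mice. This was not its largest r. Slc6a13 had r = -0.69 with the striatal medium spiny neuron score (permutation p = 0.0140, adjusted p = 0.235), and r = -0.50 without 2 mice. With the cerebellar granule cell score it had r = 0.53 (permutation p = 0.0291, adjusted p = 0.272), and r = 0.31 without 2 mice. Among the scores, Slc6a11 had its largest r with that of microglia (r = 0.76, permutation p = 0.0101, adjusted p = 0.235, rho = 0.53, p = 0.0729), with r = 0.50 when 2 mice were left out, followed by the endothelial score (r = 0.56, permutation p = 0.0189, adjusted p = 0.235, rho = 0.56, p = 0.0421). Slc6a11 and the cerebellar granule cell score had r = -0.49 (permutation p = 0.258, adjusted p = 0.555). With the astrocyte score Slc6a11 had r = 0.25 (permutation p = 0.468, adjusted p = 0.670), and r = 0.60 without 2 mice.

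**Figure D4:**
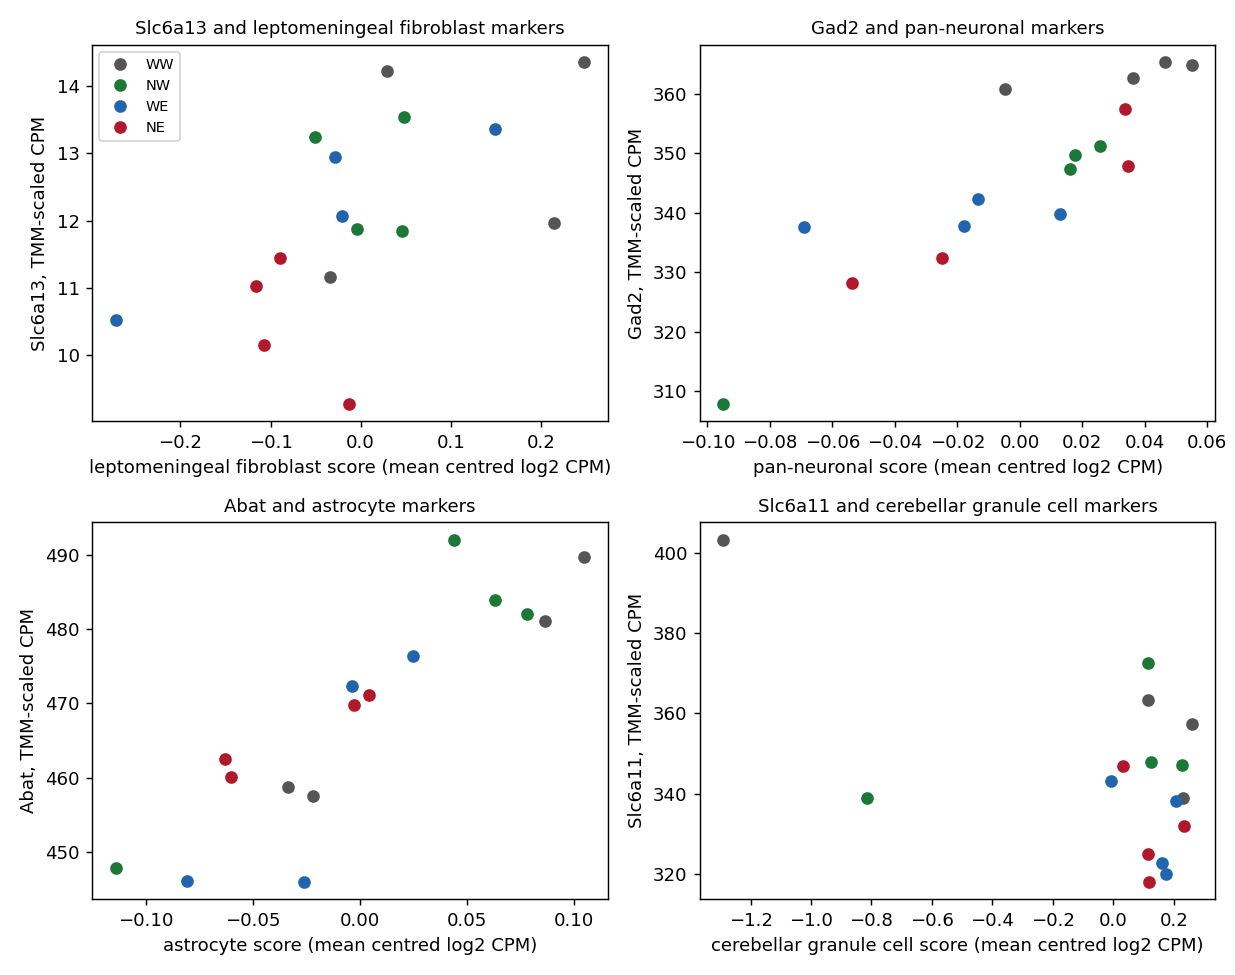
CPM of a member against a marker score in each of the 16 mice, for Slc6a13 and leptomeningeal fibroblasts, Gad2 and neurons, Abat and astrocytes, and Slc6a11 and cerebellar granule cells, with groups marked by colour and initials. Gad2 and Abat rise with their score, and in the last panel WW replicate 21 and NW replicate 10 lie apart at scores of -1.29 and -0.81.

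The genes most like each member across the 16 mice, group means removed, were found among 15591 tested genes by Pearson's r of log2 CPM. They were Kcnj3 for Gad1 (r = 0.91), Slc2a13 for Gad2 (r = 0.95), Timm17b for Slc32a1 (r = 0.87), Trem2 for Slc6a11 (r = 0.91), Lyrm2 for Slc6a13 (r = 0.87), Csnk2b for Abat (r = 0.94), Ndufa12 for Gabbr1 (r = 0.94) and Ppp1r26 for Gabbr2 (r = 0.84). These r are the highest of many and describe these libraries only.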

How the data were processed

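The labels placed 16 mice in 4 groups of 4. The authors trimmed reads with Trimmomatic 0.32, aligned them with TopHat2 to mm10 (GRCm38) and deposited a table of unnormalized whole counts of reads for each gene and FPKM from Cufflinks. The counting program and its strand setting are not given in the sources used here, and overlapping antisense reads could enter a gene's count. FPKM hold no depth. The exon counts and lengths come from the deposited table.

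Members and gene lists were chosen with earlier results of these data known. Counts were fitted over all genes with edgeR 4.0.16 in R 4.3.3 (TMM, default low-count filter, quasi-likelihood test, Benjamini-Hochberg, threshold 0.05), each pair of groups alone and all 16 mice for the effect of each substance and the interaction. SE was computed as the size of the log2 fold change over the root of F. DESeq2 1.42.0 and limma 3.58.1 (log2(FPKM + 1), log2(FPKM + 0.1)) were alternatives. For single genes, exact permutation tests (two-sided) were used, and for correlations 100000 permutations within groups (Python 3.11.15, scipy 1.17.1). Named genes were all members, pathway genes past the threshold or, up to 6 per comparison, with the smallest p, and the genes most like each member; not every such gene is reported here. The edgeR step was tested on simulated counts for NE against WW (15218 genes), where 88.9% of genes changed by a log2 of 1 and 46% of those changed by 0.3 were recovered. Changes below 0.3, the size of most member differences, were not simulated. Each gene was drawn on its own, without variation shared between genes. Positions are those of the count table, overlaps those of GENCODE M21.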

Additional observations from a re-analysis of the deposited data

Results flagged for a closer look

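Gad2 in NW replicate 7 stood apart from the other mice of its group, at 307.8 CPM, below 347, 350 and 351 CPM. The gap to its nearest neighbour was 0.909 of the group's range, above Dixon's critical value at the 95% level for 4 samples, and chance alone marks about 1 in 20 groups in this way. The rule was applied to each of the 8 members in each of the 4 groups and marked only this value, so it is no excess over chance. The library of NW replicate 7 had the lowest pan-neuronal score, -0.09, and its part in the low value was not tested.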

How the results depend on the processing

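The labels share no replicate numbers between groups. No paired analysis was possible because the groups share fewer than 2 numbers. The count of members called was recomputed 170 times and stayed at 0 in 165. It became 1 with DESeq2 in Water-Ethanol against WW (Gad2) and for the ethanol effect (Slc6a11), and leaving out single mice moved the ethanol count between 0 and 1 (1 without WW replicate 18, NW replicate 10 or NE replicate 3). Leaving out both mice of low cerebellar markers, an alternative chosen after seeing the data, left every member count at 0 but moved the genes called in Water-Ethanol from 70 to 797, in NE from 48 to 283 and for the ethanol effect from 702 to 1061. The choice of test moved them to 605, 508 and 1073. Of 1360 recomputed gene values, 61 changed sign, in 18 of 64 results. The main values of those 18 were all within 0.06 of 0, though some recomputed values were farther from it. The cause was not tested.

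When single mice were left out, the log2 values that changed sign ranged over -0.097 to 0.020 for Slc6a13 in NW against WW, -0.011 to 0.042 for Slc32a1 in Water-Ethanol against WW, -0.031 to 0.0028 for Abat in NE against WW, -0.0057 to 0.035 for Gabbr1 in NE against WW, -0.017 to 0.023 for Gad2 in NE against Water-Ethanol, -0.053 to 0.019 for Gad1 in NE against Water-Ethanol, -0.030 to 0.014 for Slc6a11 in NE against Water-Ethanol, -0.0019 to 0.031 for Abat in NE against Water-Ethanol, -0.037 to 0.015 for Gabbr2 in NE against NW, -0.035 to 0.024 for Gad2 in NE against NW, -0.060 to 0.011 for Slc32a1 in NE against NW, -0.021 to 0.014 for Slc32a1 in the ethanol effect, -0.032 to 0.017 for Abat in the interaction, -0.029 to 0.015 for Gabbr1 in the interaction and -0.0017 to 0.084 for Gabbr2 in the interaction. With WW replicates 20 and 21 left out, values were 0.015 for Slc6a11 in NW against WW, 0.0057 for Slc6a11 in the nicotine effect and -0.017 for Slc6a11 in the interaction. With the mice of low cerebellar markers left out, values were 0.016 for Slc6a11 in NW against WW, -0.011 for Slc32a1 in Water-Ethanol against WW, 0.0035 for Gabbr2 in NE against NW, 0.0056 for Slc6a11 in the nicotine effect, -0.018 for Abat in the interaction and -0.019 for Slc6a11 in the interaction. With limma on log2(FPKM + 1), values were -0.00087 for Gad2 in NE against Water-Ethanol, 0.0049 for Slc32a1 in the ethanol effect and -0.0025 for Abat in the interaction. With limma on log2(FPKM + 0.1), values were -0.00089 for Gad2 in NE against Water-Ethanol, 0.0050 for Slc32a1 in the ethanol effect and -0.0025 for Abat in the interaction. With limma on log2(FPKM + 1), no filter, values were -0.00087 for Gad2 in NE against Water-Ethanol, 0.0049 for Slc32a1 in the ethanol effect and -0.0025 for Abat in the interaction. With the marker scores as covariates, values were 0.0016 for Gad1 in NE against Water-Ethanol, 0.00051 for Slc6a11 in NE against Water-Ethanol, 0.010 for Gabbr2 in NE against NW and 0.0055 for Slc32a1 in the ethanol effect. With a minimum of 1 CPM in every mouse, values were -0.0028 for Abat in the interaction.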
